A study of Drosophila melanogaster with 6 samples.

Results

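The *Luc* control RNAi libraries give the transcriptome of the adult female fat body without knockdown of a fly gene. They were chosen by their label alone, and they are 3 of the 6 libraries of the series. The other 3 libraries, of *svp* RNAi females, were not used, so every value describes the control tissue by itself. All 3 control libraries came from females of the *y w* background that carried *PromE800-Gal4*, *tubGal80ts* and *3.1Lsp2-Gal4* together with a hairpin against *Luc*. *Luc* is the firefly luciferase gene, which flies do not have. The drivers act in oenocytes (*PromE800-Gal4*) and in adipocytes (*3.1Lsp2-Gal4*), and *tubGal80ts* keeps them silent at low temperature. The sample labels call these animals wild type, although by the study's methods they carry a driver and a hairpin. Females grew up at 18°, stayed at that temperature with males for another 3 days from an age of 0 to 2 days, and were then held at 29° for 5 days. Cells were freed with enzymes from the abdominal carcasses of 100 females per genotype, so each library pools many animals. Messenger RNA was selected by its poly(A) tail and sequenced, and the study describes 3 independent experiments.

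The fat body of the adult fly stores lipid and glycogen, makes most proteins of the hemolymph, and answers infection with secreted peptides. In females it also makes yolk proteins, which travel through the hemolymph to the ovary. In the abdomen its adipocytes lie against the body wall together with oenocytes, cells that make long-chain hydrocarbons for the cuticle. The values are given on a pair of scales. The share of counts is the percentage of a library's fragments that were assigned to a gene, and it is higher for longer genes. FPKM, the authors' normalized fragment count per kilobase of gene and library depth, divides by gene length, and levels of different genes are compared on this scale only. The spread between libraries is the SD, and the coefficient of variation is the SD as a percentage of the mean. No tests were made, because there is a single group.

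Totals of fragments counted on genes ran between 16948815 and 17940656 per library. A gene with no count in a library could have had up to 3 counts, or between 0.167 and 0.177 CPM, the count scaled to library depth. The widest 95% Wilson interval of a class's share in a library extended 0.0204 percentage points to each side. Intervals and limits cover counting error only. In each pair of libraries, counts differed by far more than sampling noise, so each library was counted as a separate sample.

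The 3 libraries were not equally alike. Across the 8231 nuclear protein-coding genes with a mean FPKM of at least 1, the Spearman correlation across genes was 0.957 between replicates 2 and 3, 0.873 between replicates 1 and 3, and 0.786 between replicates 1 and 2. These values describe genes, which are no replicates of each other. After 1 FPKM was added to each value, 321 genes (3.90%) differed more than 2-fold between replicates 2 and 3. Between replicates 1 and 2 this number was 3511 (42.7%), and between replicates 1 and 3 it was 3054 (37.1%). Replicate 1 therefore stood apart from the other two. The median log2 ratio to replicate 1 was -0.66 in replicate 2 and -0.69 in replicate 3, against 0.07 for replicate 3 relative to replicate 2. By FPKM, 5610, 1621 and 1000 of the 8231 genes were highest in replicates 1, 2 and 3, and 1859, 3989 and 2383 were lowest there. After TMM scaling, described next, 3874, 2839 and 1518 were highest and 3603, 3059 and 1569 lowest. Scaling factors by edgeR's TMM method, which sets the bulk of the genes level, were 1.38, 0.834 and 0.867 in replicates 1, 2 and 3. FPKM values and their SDs are given as deposited. An order or a spread of FPKM between the libraries need not hold after TMM scaling, since the factor of replicate 1 is the highest. In particular, the order of the summed FPKM changed with it for translation factors, the cytoskeleton, the nuclear respiratory chain, the lysosome, the secretory pathway, immune recognition, the tricarboxylic acid cycle, the proteasome, antioxidant enzymes, β-oxidation, larval serum proteins, glutathione S-transferases and the cuticle.

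**Figure D1:**
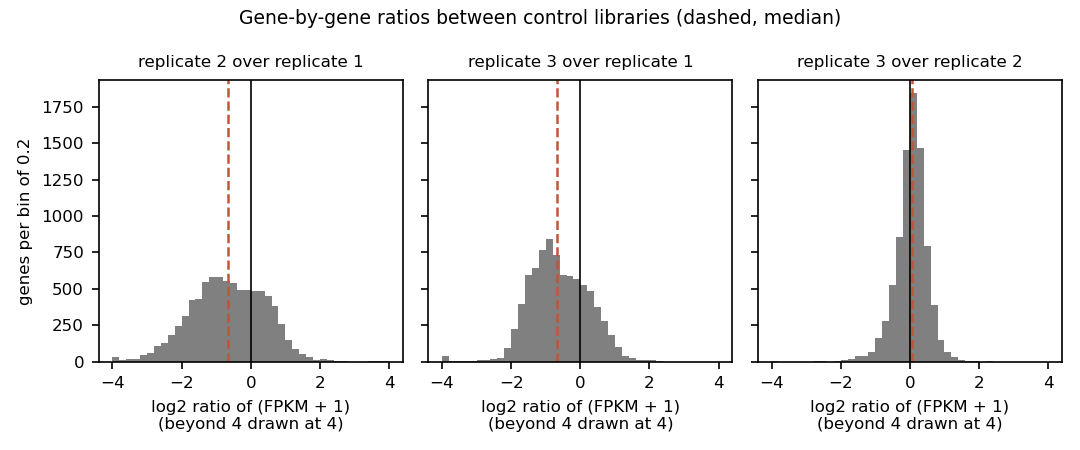
Log2 ratios of FPKM + 1 for each pair of *Luc* control RNAi libraries (x axis, in bins of 0.2) against the number of nuclear protein-coding genes with a mean FPKM of at least 1 (y axis). The ratios of replicate 3 to replicate 2 lie close to 0, whereas those to replicate 1 are broad, with medians of -0.66 and -0.69 (dashed lines).

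The label of the tissue was checked with marker genes. All 6 markers of the adult fat body were detected in every library, with a summed FPKM of 47237, 60280.5 and 79915 in replicates 1, 2 and 3. Nearly all of this sum came from the 3 yolk protein genes, with 46612, 59526.5 and 79050 FPKM. Follicle cells of the ovary make yolk proteins too, so the sum is not a measure of fat body alone. *Rfabg* (FBgn0087002; chromosome 4 from 1060969 to 1077273), which encodes the apolipophorin that forms the main lipid carrier of the hemolymph, had 452, 528 and 609 FPKM. *Lsd-1* (FBgn0039114), which encodes a perilipin on the surface of lipid droplets, had 162, 209.8 and 236 FPKM. *AkhR* (FBgn0025595), the receptor of the adipokinetic hormone that mobilizes lipid, was far lower at 11.8, 15.8 and 20.1 FPKM. Each of the 6 markers was lowest in replicate 1 and highest in replicate 3.

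Genes of other cell types were also found, and several lists were higher in a particular library. The 44 digestive enzymes of the midgut had a summed FPKM of 4396 in replicate 1, against 299.6 and 358 in replicates 2 and 3. Eggshell genes of the follicle cells (21 genes) had 2962, 1323 and 392, and 12 germline genes had 581, 94.3 and 173. *Vm34Ca*, which encodes a vitelline membrane protein, led the eggshell list with 944, 427 and 118 FPKM, and *osk*, which builds the germ plasm of the oocyte, led the germline list with 179, 20.9 and 51.1 FPKM. Replicate 1 was thus the highest for these 3 lists, with 22 of 23 midgut genes of at least 50 counts and 12 of 12 germline genes. Over the 8231 nuclear protein-coding genes with a mean FPKM of at least 1, 5610 were highest there by FPKM, and 3874 after TMM scaling. *Amy-p*, an amylase, stayed at 140.4 FPKM or more in every library, but how reads were split between it and its near-identical copy *Amy-d* is uncertain. Muscle genes (21) were highest in replicate 2, with 243, 921 and 345, as were 11 hemocyte genes, with 445, 849.5 and 512. The 6 oenocyte genes had 2945, 8151 and 5587, and here every member was highest in replicate 2. Genes of neurons (11), trachea (4) and the male accessory gland (16) stayed near 0, with sums between 3.33 and 10.6. In the male accessory gland list, 8 of the 16 genes had no count in any library. These orders of the libraries were the same after TMM scaling except in the male accessory gland list. Whether these other cells had a part in any value below was not tested, and in such bulk samples fewer cells of a type cannot be told apart from less RNA per cell.

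**Figure D2:**
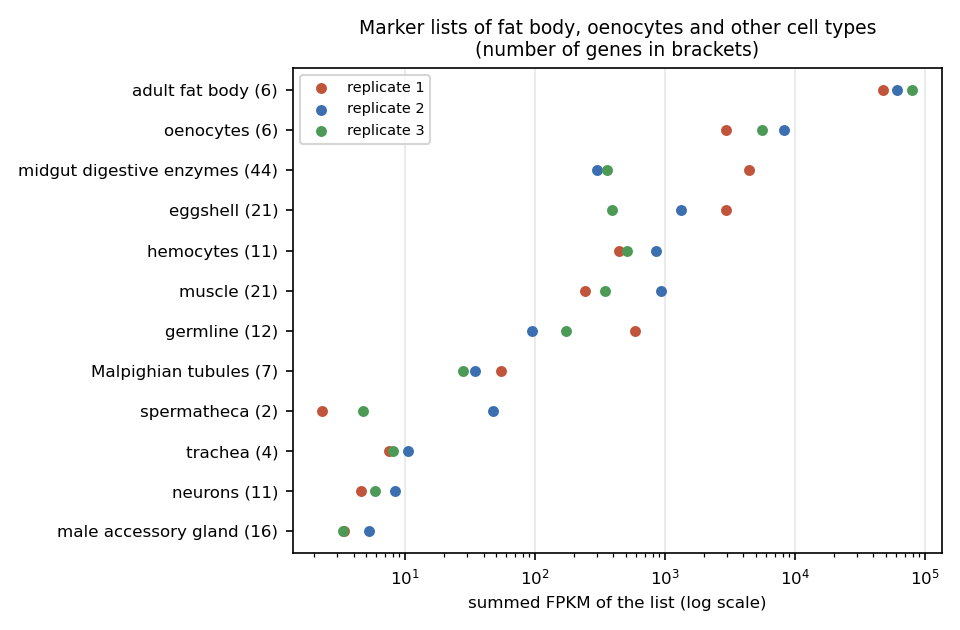
Summed FPKM (x axis, log scale) of marker lists for the adult fat body, oenocytes and other cell types (rows, with the number of genes), with 1 point per *Luc* control RNAi library. Fat body markers lie at 47237 or above in all 3 libraries, nearly all of it from yolk protein genes. Midgut, eggshell and germline lists are highest in replicate 1 and muscle and hemocyte lists in replicate 2.

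A mean FPKM of at least 1 was found for 8244 of the 13917 genes annotated as protein-coding, 8231 of them nuclear. The levels were very uneven. Of the nuclear genes, 5179 reached a mean of 10 FPKM, 682 reached 100, 108 reached 1000 and only 5 exceeded 10000. The median level of the expressed genes was 14.4 FPKM. No count in any library was found for 2490 of the 13904 nuclear protein-coding genes. The 10 most counted genes took 22.9% of the counts in replicate 1, 37.3% in replicate 2 and 34.7% in replicate 3, which is a mean of 31.6% ± 7.66 (SD, n = 3). In replicate 1, 311 genes were needed to reach 50% of the counts, whereas 67 and 79 were enough in replicates 2 and 3. Counts were therefore spread over more genes in replicate 1.

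Of the 10 most counted genes, 5 belong to the mitochondrial genome, and the others are the 3 yolk protein genes, *Tsf1* and *Cyp4g1*. When only nuclear protein-coding genes were ranked by mean FPKM, *Yp2*, *Yp3*, *Drs*, *Yp1* and *CG18628* came first, and these are the 5 genes above 10000 FPKM. Among the 30 highest genes were 8 for ribosomal proteins, 5 for bomanins and related immune-induced peptides and 2 for odorant-binding proteins. The genes were sorted into 31 classes by function. The 30 genes were lowest in replicate 1 in 27 cases and highest in replicate 3 in 22 cases. Of the 682 nuclear genes with a mean of at least 100 FPKM, 384 were lowest in replicate 1 and 325 highest in replicate 3. After TMM scaling all 30 were lowest in replicate 1, against 3603 of the 8231 nuclear genes with a mean FPKM of at least 1. Without each library in turn, between 28 and 29 of the 30 genes were named again, but only 16 when genes were ranked by mean count, which does not divide by length.

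**Figure D3:**
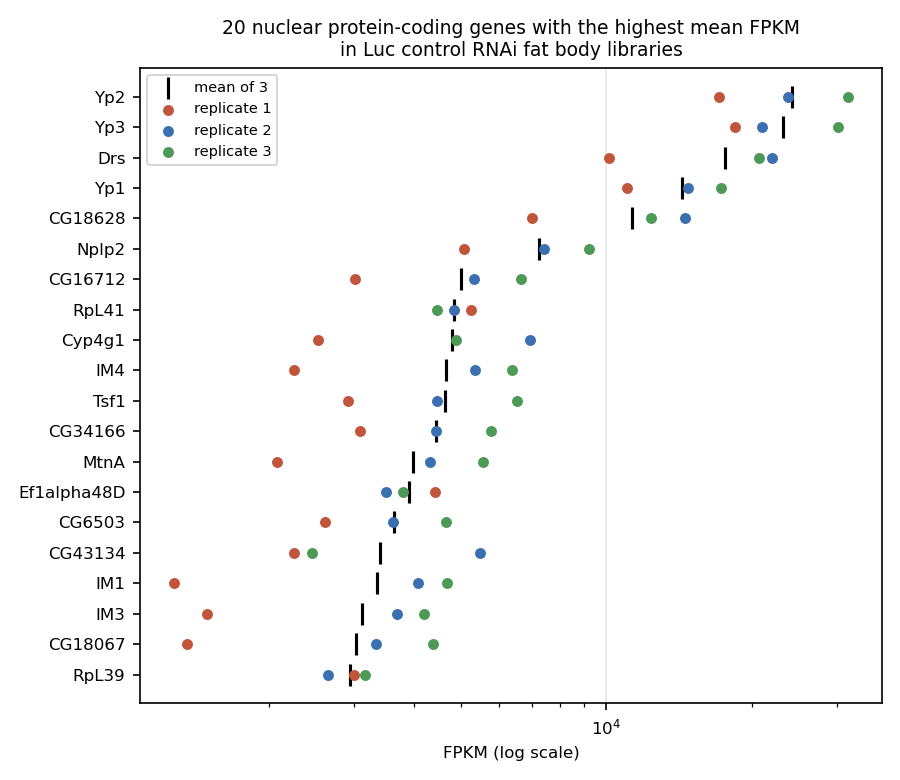
FPKM (x axis, log scale) of the 20 nuclear protein-coding genes with the highest mean, with 1 point per *Luc* control RNAi library and a bar at the mean. *Yp2*, *Yp3*, *Drs*, *Yp1* and *CG18628* lie above 10000 FPKM on average, the points of *RpL41* and *RpL39* are close together across libraries, and *Cyp4g1* and the immune-induced genes are spread widely.

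Yolk protein genes were among the most abundant nuclear transcripts, with *Yp2* and *Yp3* first by mean FPKM, then *Drs* and *Yp1*. Yolk proteins are taken up by growing oocytes and feed the embryo, and they are made by the fat body and by the follicle cells of the ovary. *Yp2* (FBgn0005391; chromosome X from 10050951 to 10052636) had 17084, 23788 and 31665 FPKM in replicates 1, 2 and 3, a mean of 24179 ± 7299 (SD, n = 3). *Yp3* (FBgn0004047; chromosome X from 13759546 to 13761547) had 18484, 21004 and 30153 FPKM, and *Yp1* (FBgn0004045; chromosome X from 10053811 to 10055498) had 11044, 14734 and 17232 FPKM. The proportions of the 3 genes varied less than their levels. *Yp1* relative to *Yp2* was 0.603 ± 0.0530 (SD, n = 3), and *Yp3* relative to *Yp2* was 0.972 ± 0.101 (SD, n = 3). *Yp1* and *Yp2* lie head to head, 1175 bp apart and on opposite strands, whereas *Yp3* is elsewhere on the same chromosome. Together the 3 genes took 7.57%, 9.64% and 12.8% of all counts, a mean of 10.0% ± 2.65 (SD, n = 3). The summed yolk FPKM had a coefficient of variation of 26.5%, or 44.6% after TMM scaling. It was lowest in replicate 1 on both scales. Eggshell genes of the follicle cells were highest in that library, and which cells the yolk transcripts came from was not tested.

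Proteins that the larval fat body stores were still represented. *Lsp1beta*, a subunit of the larval serum protein, had 780 FPKM in replicate 1, 841 in replicate 2 and 711 in replicate 3. *Lsp2* was among the genes that varied least on the FPKM scale, with 193, 191 and 195 FPKM. After TMM scaling both were lowest in replicate 1, with coefficients of variation of 27.9% for *Lsp1beta* and 25.5% for *Lsp2*. *Lsp1beta* was 22.3 ± 3.73 (SD, n = 3) times as high as *Lsp1alpha*, and *Lsp1gamma* had only 16, 40 and 10 counts. *Fbp1* and *Fbp2*, which encode receptor and dehydrogenase-like proteins of the larval fat body, averaged 2.36 ± 1.84 and 5.12 ± 1.62 FPKM (SD, n = 3 each). The 6 genes together took 0.265% ± 0.0189 (SD, n = 3) of the counts.

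Several genes for metal-binding and odorant-binding proteins were also among the 30 highest. *Tsf1* (FBgn0022355; chromosome X from 18387084 to 18390344), a transferrin that carries iron, had 2917, 4467 and 6534 FPKM in replicates 1, 2 and 3. The metallothionein gene *MtnA* had 2076, 4308 and 5549 FPKM, while *MtnB*, *MtnC* and *MtnD* averaged 6.996 ± 4.65, 7.15 ± 2.58 and 49.5 ± 9.27 FPKM (SD, n = 3 each). *MtnA* was thus far above these 3 relatives, which bind metals as well. The ferritin subunits *Fer2LCH* and *Fer1HCH* averaged 1423 ± 311 and 1178 ± 232 FPKM (SD, n = 3 each), and their ratio was nearly the same in each library, at 1.21 ± 0.0454 (SD, n = 3). These genes overlap at their ends on chromosome 3R, and the strand setting of the counting is not given in the sources used here. The odorant-binding proteins *Obp99c* and *Obp99a* averaged 2247 ± 776 and 2073 ± 676 FPKM (SD, n = 3 each), and they were followed by *Obp99b* at 225 ± 120 and *Obp56a* at 206 ± 123. Of the 51 genes of this family, 15 reached 1 FPKM.

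Of the 30 highest genes, 6 belonged to none of the classes. *CG18628* (FBgn0036091; chromosome 3L from 10639740 to 10640136) had 7026, 14540 and 12368 FPKM in replicates 1, 2 and 3. *CG34166*, *CG6503* and *CG2233* averaged 4430 ± 1333, 3635 ± 1023 and 2621 ± 925 FPKM (SD, n = 3 each), and *CG18067*, named Bbd at present, averaged 3024 ± 1536 FPKM. Unlike these 4 genes, which were highest in replicate 3, *CG43134* had its highest level in replicate 2, at 5475 FPKM, against 2453 FPKM in replicate 3.

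Lipid carriers and secreted signals were moderately high. After *Rfabg*, with a mean of 529.8 ± 78.7 FPKM (SD, n = 3), came *LpR2*, a lipophorin receptor, at 179 ± 22.4, and *Npc2a*, which binds sterols, at 211 ± 21.6. *Dbi*, which encodes an acyl-CoA binding protein inside cells, was the highest of this class at 874 ± 250.3 FPKM. *Rfabg* was 15.4 ± 1.05 (SD, n = 3) times as high as *Apoltp*, which encodes the lipid transfer particle that loads lipophorin. Among secreted signals, *Nplp2* (FBgn0040813) was the highest, with 5079, 7436 and 9199 FPKM in replicates 1, 2 and 3. *fit*, a female-specific satiety signal, averaged 634 ± 124 FPKM, and the imaginal disc growth factors *Idgf4* and *CG5210* (named Idgf6 at present) averaged 524 ± 134 and 447 ± 83.4 FPKM (SD, n = 3 each). All of these carriers and signals were lowest in replicate 1, also after TMM scaling.

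Immune effector genes were high without any infection in the design. Antimicrobial peptides are secreted after activation of the Toll and IMD pathways, which respond to fungi and bacteria. *Drs* (FBgn0010381; chromosome 3L from 3369556 to 3369942), which encodes the antifungal peptide Drosomycin, had 10124, 22002 and 20648 FPKM in replicates 1, 2 and 3. It made up 87.9%, 89.9% and 89.5% of the summed FPKM of the 20 antimicrobial peptide genes. The next in order were *CecC* at 396 ± 199, *Drsl4* at 310.3 ± 7.19 and *Def* at 204 ± 93.8 FPKM (SD, n = 3 each). *Drsl4* was the exception in this class, since its coefficient of variation was 2.32% on the FPKM scale and 24.4% after TMM scaling. The class took 0.454%, 0.968% and 0.918% of the counts.

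Bomanins are short peptides induced by Toll signaling that protect against fungi and bacteria. The class of 18 genes holds them together with other immune-induced peptides, such as *CG16712* and *IM4*. Of the 18 genes, 17 had a mean of at least 1 FPKM, and all 17 were highest in replicate 3 and lowest in replicate 1, also after TMM scaling. Over the 8231 nuclear protein-coding genes at that level, 1000 were highest in replicate 3 and 1859 lowest in replicate 1 by FPKM. After TMM scaling these numbers were 1518 and 3603. *CG16712* (named IM33 at present) had 3017, 5332 and 6640 FPKM. *IM4*, a peptide named Dso1 at present, had 2253, 5345 and 6362 FPKM, and *IM1* (BomS1) had 1272, 4079 and 4688 FPKM. The bomanin genes from *CG43202* to *CG15068* lie within a stretch of chromosome 2R from 18381393 to 18390629, and the means of the 10 measured there ranged from 195 FPKM (*CG43202*) to 3346 FPKM (*IM1*). *CG18107* and *CG15067* overlap in this stretch, so their reads cannot be told apart without strand. The summed FPKM of the class was 13360, 31128 and 39031, so replicate 3 had 2.92 times the level of replicate 1. Turandot genes, which respond to stress and infection, had the same order, with sums of 268, 597 and 932 FPKM. Replicate 1 was the lowest library for all 3 classes of immune peptides, also after TMM scaling.

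Recognition proteins and serpins, which inhibit proteases, were lower. *PGRP-SC2*, an amidase that cleaves peptidoglycan, averaged 733 ± 188 FPKM, *GNBP-like3* 518 ± 228, *NimB2* 229.5 ± 76.2 and the serpin *nec* 226 ± 73.4 (SD, n = 3 each). The separate class of 26 serpins was led by *Spn43Ab*, at 402 ± 139 FPKM, and *Spn28Dc*, at 244 ± 73.1. Of that class, 11 genes reached 1 FPKM. Upstream, all 19 genes of the Toll and IMD pathways reached 1 FPKM, and *PGRP-SA*, the circulating receptor of the Toll pathway, averaged 149 ± 50.8 FPKM. *cact*, the inhibitor that holds Toll signaling in check, averaged 146 ± 33.4, and the IMD inhibitor *pirk*, the receptor *PGRP-LC* and the amidase *PGRP-LB* averaged 70.1 ± 17.4, 38.5 ± 2.60 and 34.5 ± 9.07 FPKM (SD, n = 3 each). No gene of this list, which leaves out the transcription factor *Rel*, exceeded *PGRP-SA*, which was far below *Drs*.

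*Cyp4g1* (FBgn0010019; chromosome X from 467057 to 469335), the cytochrome P450 with which oenocytes make cuticular hydrocarbons, had 2532, 6933 and 4880 FPKM in replicates 1, 2 and 3. It took 59.6%, 77.4% and 68.6% of the summed FPKM of a class of 90 genes, which holds the cytochrome P450 genes together with the reductase gene *Cpr* and the oxygenase gene *nvd*. Its highest library was replicate 2, as for the desaturase *Fad2*, at 288, 838 and 491 FPKM, and the elongase *eloF*, at 71.3, 233 and 126 FPKM, both also known from oenocytes. The other leading P450 genes were *Cyp6g1*, which is known for insecticide resistance, at 341 ± 86.8 FPKM and *Cyp6w1* at 118 ± 44.1 FPKM. *Cpr*, the reductase that serves all P450 enzymes, averaged 245 ± 50.8 FPKM (SD, n = 3 each). Of the class, 63 genes reached 1 FPKM and 5 had no count. Detoxifying transferases were led by *GstD1* at 579 ± 136 and *GstE12* at 276 ± 52.6 FPKM, and no UDP-glycosyltransferase reached 100 FPKM.

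Lipid synthesis was led by *Desat1*, the stearoyl-CoA desaturase, with 1123, 1394 and 1985 FPKM. After *Fad2* came *AcCoAS*, which makes acetyl-CoA and averaged 402 ± 128 FPKM, and *CG3523*, the fatty acid synthase, averaged 321 ± 51.6 FPKM (SD, n = 3 each). Of the 29 genes for lipid synthesis, storage and mobilization, 26 reached 1 FPKM and 11 reached 100 FPKM. Genes for β-oxidation were lower, with *scu* at 213 ± 27.7 FPKM as the highest. The perilipins of the lipid droplet differed in their pattern. *Lsd-2* relative to *Lsd-1* was 1.72 in replicate 1 but 0.904 and 0.884 in replicates 2 and 3.

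Carbohydrate genes were led by *Tps1*, which makes trehalose, the blood sugar of insects, at 755 ± 238 FPKM. Next came the glycolytic genes *Gapdh2*, at 657 ± 168, and *Ald*, at 629 ± 118, and *Tal* of the pentose phosphate pathway at 403 ± 99.4 (SD, n = 3 each). Of the 32 genes for glycolysis, glycogen and trehalose, 31 reached 1 FPKM and 20 reached 100. In amino acid and one-carbon metabolism, *pug*, which makes folate cofactors, averaged 464 ± 183, *Got2* 408 ± 67.8, *CG3011* (Shmt) 361 ± 67.2 and *Gnmt*, which consumes S-adenosylmethionine, 312 ± 185 (SD, n = 3 each). *Gnmt* varied most among them, with 132 FPKM in replicate 1, 302 in replicate 2 and 502 in replicate 3. Both classes were highest in replicate 3 under every scaling tried.

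**Figure D4:**
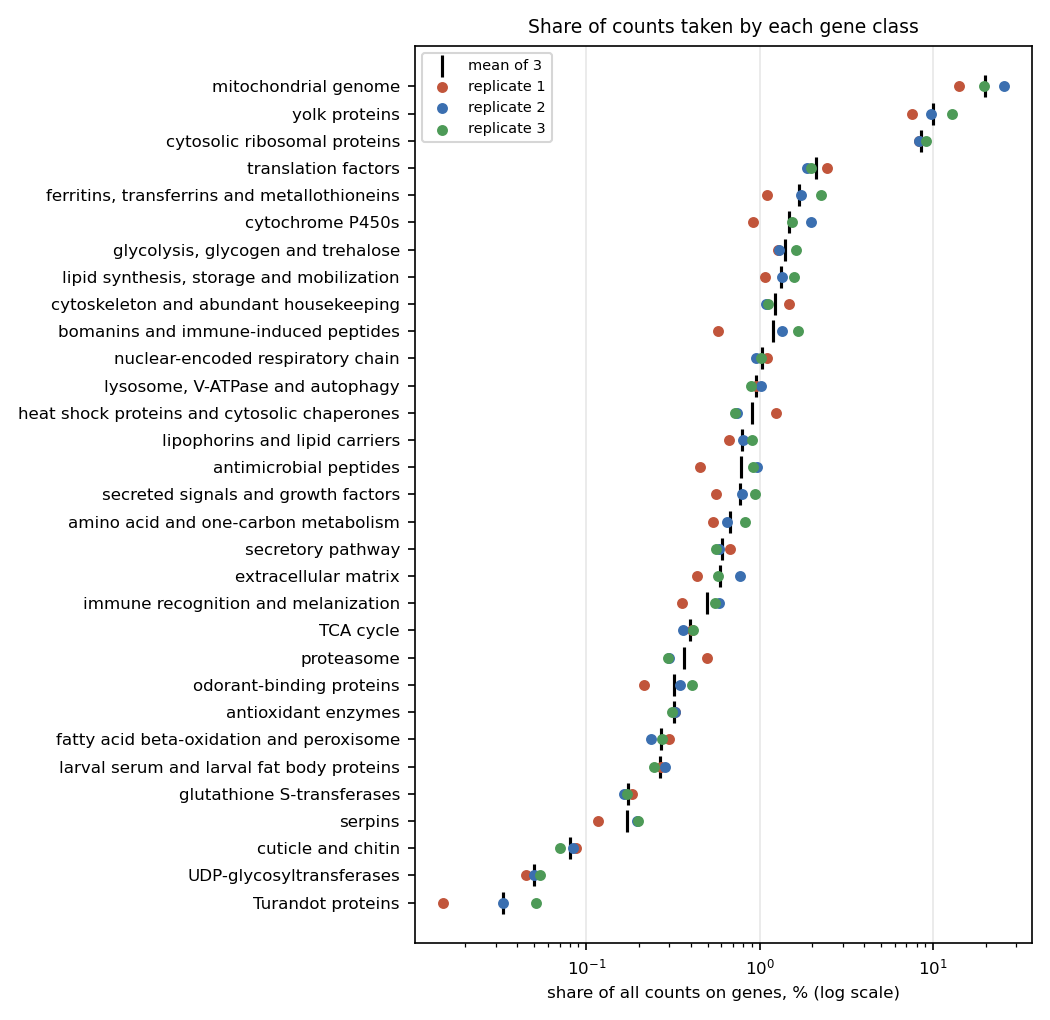
Share of all counts (x axis, log scale, in percent) taken by each of 31 gene classes (rows), with 1 point per *Luc* control RNAi library and a bar at the mean. The mitochondrial genome, the yolk proteins and the ribosomal proteins are the only classes above 8% on average. Replicate 1 is the lowest for many classes, among them the mitochondrial genome, yolk, immune peptide, lipid synthesis and cytochrome P450 classes.

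Ribosomal protein genes took 8.25%, 8.23% and 9.03% of the counts, a mean of 8.50% ± 0.457 (SD, n = 3). Each ribosome holds a single copy of nearly every ribosomal protein, so these genes are usually expressed at similar levels. Of the 93 genes, 83 reached 100 FPKM, and these had a median of 1279 FPKM between 170 and 4842 FPKM. The lowest of them was *RpL24-like*, and whether the product of each gene in the class is part of the ribosome was not checked. *RpL41*, *RpL39* and *RpS27A* were the highest, with means of 4842 ± 398, 2940 ± 255.5 and 2532 ± 185 FPKM (SD, n = 3 each). Among the 100 highest nuclear genes, 63 were for ribosomal proteins. On the FPKM scale they had the lowest median coefficient of variation of the 31 classes, and 65 of 85 members with a mean of at least 50 counts had a coefficient of variation under 10%. After TMM scaling, their median coefficient was 28.4% instead of 7.37%, since that scaling lowers replicate 1.

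Paralogs of ribosomal proteins, which were picked by their names after the values of the class had been seen, differed strongly in level. Of 12 pairs, 5 had a minor copy with no count in at least 2 libraries, and 3 of these, *RpL22-like*, *RpL10Aa* and *RpL7-like*, had no count in any library. *RpS14a* and *RpS14b*, whose products are identical, were found at a fixed proportion, with *RpS14b* at 23.8%, 24.5% and 24.4% of the pair. Their sequences are nearly the same, so how reads were divided between them is uncertain. The exception was *RpS5b*, a form known from the female germline, with 479.5 FPKM in replicate 1, 40.1 in replicate 2 and 112 in replicate 3. It was 43.8% of the pair with *RpS5a* in replicate 1, but 4.74% and 11.2% in the others, an order that the germline list shared.

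Translation factors took 2.10% ± 0.301 (SD, n = 3) of the counts. *Ef1alpha48D*, the elongation factor that brings tRNA to the ribosome, averaged 3904 ± 469 FPKM, *eIF-5A* 1251 ± 79.3, *EF2* 1056 ± 142 and *Ef1gamma* 924 ± 60.7 (SD, n = 3 each). Of the 43 genes with a mean of at least 50 counts, 41 were highest in replicate 1, an order that did not hold for the summed level after TMM scaling. Most nuclear protein-coding genes with a mean FPKM of at least 1, 5610 of 8231, were also highest in replicate 1 by FPKM. Proteins of the secretory pathway were led by the endoplasmic reticulum chaperones *Crc* at 335 ± 28.1, *Pdi* at 309 ± 15.2 and *Hsc70-3* at 266 ± 50.3 FPKM (SD, n = 3 each). Lysosomal proteases were higher, with *Cp1* at 946 ± 123 and *cathD* at 456 ± 85.5 FPKM.

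The scaling mattered for the genes of protein quality control. The 35 chaperone and heat shock genes had a summed FPKM of 6344 in replicate 1, against 3785 and 3687 in replicates 2 and 3. *Hsc70-4*, the constitutive chaperone, had 1459, 1039 and 946 FPKM, and *Hsp26* and *Hsp83* had 1266 and 706 FPKM in replicate 1 but between 289.8 and 621 FPKM in the others. The 48 proteasome genes had 3842, 2384 and 2325 FPKM, and 31 of the 33 with a mean of at least 50 counts were highest in replicate 1. So were 5610 of the 8231 nuclear protein-coding genes with a mean FPKM of at least 1. The differences in the sums were far smaller after TMM scaling. The coefficient of variation of the summed level then was 4.10% for chaperones, against 32.7% without it, and 3.22% for the proteasome, against 30.1%. Single chaperone genes stayed uneven, with a median coefficient of 38.5% after TMM scaling and 42.9% without it, whereas that of proteasome genes was 8.93%, against 33.3% without it. With DESeq2 size factors, the coefficient of the summed level was 4.93% for the proteasome and 25.5% for the ribosomal proteins. None of these scalings therefore made the ribosomal proteins and the proteasome even at the same time.

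The mitochondrial genome took the largest share of counts of any class. It took 14.1% in replicate 1, 25.5% in replicate 2 and 19.7% in replicate 3, a mean of 19.8% ± 5.72 (SD, n = 3). The mitochondrial genome encodes core subunits of the respiratory chain, and its transcripts can carry short poly(A) tails. *mt:CoIII*, *mt:CoI* and *mt:CoII*, subunits of cytochrome c oxidase, had means of 68394 ± 19499, 57193 ± 18434 and 33265 ± 10520 FPKM (SD, n = 3 each). *mt:CoI* relative to *mt:CoII* was nearly constant, at 1.72 ± 0.0120 (SD, n = 3), although each transcript was lowest in replicate 1 and highest in replicate 2. In contrast, *mt:ND5*, *mt:ND4* and *mt:ND1* averaged 278 ± 56.6, 308 ± 55.9 and 672 ± 224 FPKM (SD, n = 3 each). The large ribosomal RNA *mt:lrRNA* had 12238 ± 1886 FPKM, against 11.1 ± 2.98 FPKM for the small one, *mt:srRNA*. Overlapping neighbors such as *mt:ATPase6* and *mt:ATPase8* cannot be told apart where they share sequence, and *mt:ATPase8* averaged 2.78 ± 2.71 FPKM, against 17926 ± 5324 for *mt:ATPase6*. Of the 37 genes, 16 had no count, all of them tRNAs.

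The nuclear genes of the respiratory chain were far below the mitochondrial oxidase subunits. They took 1.10%, 0.951% and 1.02% of the counts. By complex, the median over genes with a mean of at least 10 FPKM was 78.6 FPKM for complex I (31 genes), 58.2 for complex II (4), 162 for complex III (7), 346 for complex IV (10) and 272 for complex V (13). Complex IV thus had the highest median, and the 3 highest mitochondrial transcripts also belong to it. Of its 18 nuclear genes, these 10 lay between 215 and 395 FPKM, with a median coefficient of variation of 5.34%, and 7 were below 1 FPKM. The summed level of the class varied by 4.74% between libraries, or by 22.7% after TMM scaling. Of the tricarboxylic acid cycle, all 16 genes reached 1 FPKM, led by *Mdh1* at 456 ± 55.8 FPKM.

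Among the lists of regulators, the nuclear receptors had the lowest median level. All 21 nuclear receptors were below 100 FPKM, 13 reached 1 FPKM, and the median was 2.44 FPKM. *Hnf4*, which governs lipid use, was the highest by mean, with 35.3, 31.6 and 29.3 FPKM, and it was followed by *usp*, the partner of the ecdysone receptor, with 43.7, 13.4 and 19.7 FPKM. After TMM scaling *Hnf4* was instead lowest in replicate 1, while *usp* was still highest there. *Hr78* averaged 17.5 ± 4.57, *svp* 16.2 ± 4.11 and *Eip75B*, an ecdysone-induced receptor, 15.5 ± 3.43 FPKM (SD, n = 3 each). These 3 neighbors in the order differed by less than their spread. *svp* had 11.4 FPKM in replicate 1 and 18.5 and 18.6 in replicates 2 and 3.

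Other transcription factors were higher, with *crc*, the fly ATF4 of the amino acid response, at 324 ± 49.4 FPKM and *Rel*, the NF-κB factor of the IMD pathway, at 252 ± 87.7 FPKM. *Stat92E*, *HLH106* (SREBP) and *cnc*, the fly Nrf2, averaged 96.0 ± 6.33, 69.3 ± 10.1 and 56.7 ± 13.7 FPKM (SD, n = 3 each). In nutrient signaling, *Thor*, which encodes the translational inhibitor 4E-BP, averaged 419 ± 69.4 FPKM, and *alc*, a subunit of the AMP-activated kinase, 129.8 ± 17.8, while *Rheb*, *SNF4Agamma* and *Pdk1* were between 45.1 and 62.1 FPKM. All 24 genes of this list reached 1 FPKM. The sex determination genes *Sxl*, *tra2*, *ix*, *dsx* and *tra* averaged between 8.85 and 40.5 FPKM. Clock genes were found at 41.6 ± 11.7 FPKM for *cry*, 41.3 ± 9.34 for *Pdp1* and 32.2 ± 8.26 for *tim* (SD, n = 3 each), and their kinases *sgg* and *dco* averaged 56.5 ± 9.69 and 45.3 ± 36.2 FPKM. In juvenile hormone metabolism, the epoxide hydrolases *Jheh2*, *Jheh1* and *Jheh3* averaged 74.5 ± 8.87, 24.9 ± 4.004 and 15.4 ± 5.18 FPKM, and the methyltransferase *jhamt* 17.8 ± 4.43 FPKM (SD, n = 3 each). *FK506-bp1* in the same list had 206 FPKM in replicate 1 and 43.2 and 53.9 in the others.

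The spread between the 3 libraries was large for most genes. Among protein-coding genes with a mean of at least 50 counts, the median coefficient of variation of FPKM was 40.4%. It was 14.1% between replicates 2 and 3 alone, without replicate 1. The counting error expected from the depth had a median of only 4.25% over the 7858 nuclear genes, so depth was not the limit. By level on the FPKM scale, the median over nuclear genes was 49.6% between 1 and 10 FPKM and 39.1% between 10 and 100. It was 24.2% between 100 and 1000, and 9.21% above 1000 FPKM, where most genes are ribosomal. After TMM scaling, the median was 33.2% over all the nuclear genes and 28.4% over ribosomal protein genes. The fall with level is therefore given for the FPKM scale only. The biological coefficient of variation, the square root of edgeR's common dispersion, was 43.1% for all 3 libraries and 26.1% without replicate 1. A coefficient of 100% or more was found for 367 nuclear genes, and 348 of these were highest in replicate 1, 18 in replicate 2 and 1 in replicate 3. Of the 8231 nuclear genes with a mean FPKM of at least 1, 5610, 1621 and 1000 were highest in replicates 1, 2 and 3. After TMM scaling, 107 genes had a coefficient of 100% or more.

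**Figure D5:**
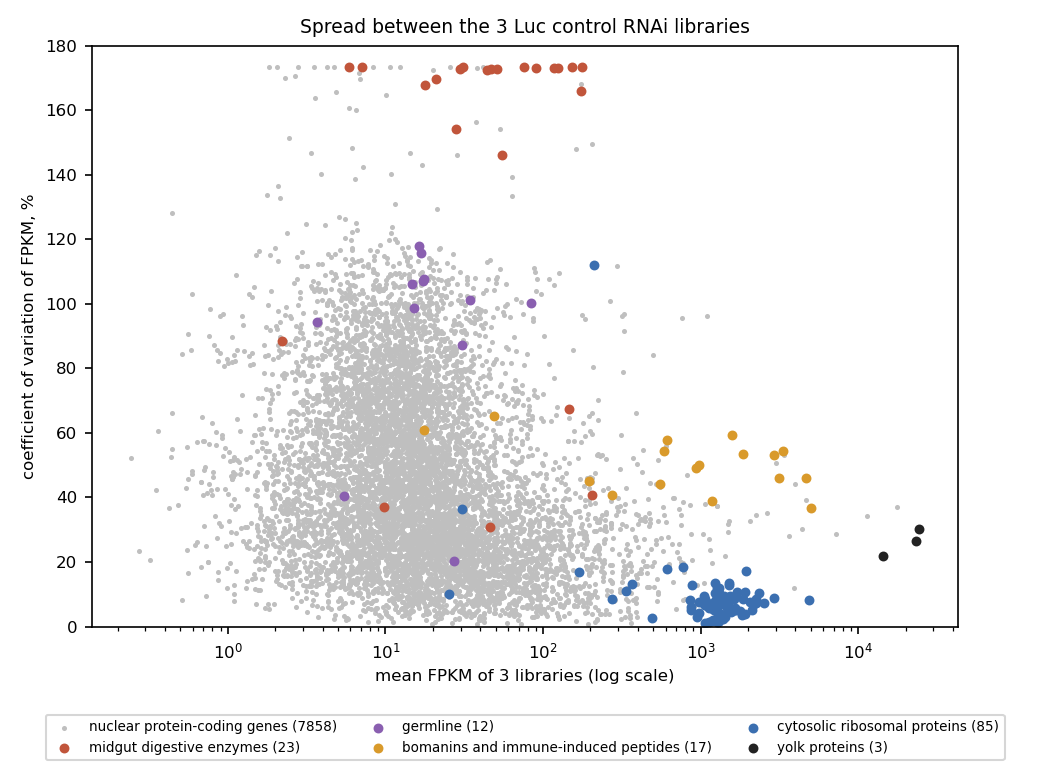
Coefficient of variation of FPKM between the 3 *Luc* control RNAi libraries (y axis, in percent) against mean FPKM (x axis, log scale) for 7858 nuclear protein-coding genes with a mean of at least 50 counts, with 5 lists in color. Ribosomal protein genes lie near 7.37%, yolk protein genes between 21.7% and 30.2%, and most midgut enzymes near 173%, the value for a gene found in 1 library only.

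Among genes with a mean of at least 50 FPKM, the 10 with the widest spread were all of the midgut list or serine proteases of the same kind, found almost wholly in replicate 1. *Jon99Cii*, a serine protease of the gut, had 7763 counts in replicate 1 and none in the other libraries, and *betaTry*, a trypsin, had 7325 and none. *alphaTry* had 7428, 136 and 85 counts. The others were *Jon65Aiii*, *Jon99Ciii*, *Jon25Bi*, *Jon65Aiv*, *Jon99Ci*, *yip7* and *CG18180*, each at 152 FPKM or more in replicate 1 and at 7.50 or less in the others. The *Jon99C* and trypsin genes have close copies beside them, and how reads that fit several copies were counted is not given in the sources used here, so the split among them is uncertain.

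The 10 genes with the narrowest spread had coefficients between 0.757% and 1.62%. They were *CG11752* (NdufV3, a subunit of complex I), *Lsp2*, *CG8993*, *Mpcp*, a phosphate carrier of mitochondria, *Non1*, which is needed to assemble ribosomes, and the ribosomal protein genes *RpS19a*, *RpL35A*, *RpL40*, *RpL9* and *RpL6*. *CG11752* had 72.5, 72.6 and 73.5 FPKM, and *RpS19a* had 1081, 1059 and 1076 FPKM. Their evenness held for the FPKM scale only. After TMM scaling their coefficients were between 24.6% and 26.6%, while the wide spread of the digestive genes stayed between 162% and 173%. Which genes were the most even thus depended on the scaling.

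The highest genes were short and lay on all chromosome arms. The 100 highest nuclear genes had a median listed length of 858.5 bp, against 2026 bp for all expressed genes, and 10 of the 30 highest were under 500 bp. For such short genes FPKM depends strongly on the length used. Arm 2R held 27 of the 100 genes and 20.7% of the expressed genes, and X held 18, against 16.5%. The small chromosome 4 held 1, the ribosomal protein gene *RpS3A*. Leaving out ribosomal protein genes, 7 neighboring pairs among the 100 lay within 10000 bp of each other. They were *Yp2* and *Yp1*, *Fer1HCH* and *Fer2LCH*, *IM4* and *IM14*, *CG16713* and *CG16712*, and 3 pairs in the bomanin cluster from *IM1* to *CG15068*.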

How the data were processed

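Libraries were made with poly(A) selection and sequenced as read pairs. Per the labels and the study's methods, the authors aligned reads with TopHat to an Ensembl reference and counted them with HTSeq, and they deposited raw counts per gene and FPKM. Versions, the strand setting and the treatment of reads with several positions are not given in the sources used here. The deposited FPKM were recomputed from the counts. The gene length behind them equalled the listed length for 6215 of 12686 detected genes and was shorter for 6471. Coordinates are those of the files, on BDGP6 (16976 of 17558 genes had the same coordinates in that annotation).

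Only the 3 control columns of both tables were read, and the 3 columns of *svp* RNAi libraries in each table were not used. Library totals were between 16948815 and 17940656 counts. Shares of counts, means and SDs over libraries, coefficients of variation (genes with a mean of at least 50 counts) and Wilson intervals were computed with Python 3.11.15, pandas 2.3.3 and numpy 2.4.6. The biological coefficient of variation and TMM factors came from edgeR 4.0.16 and size factors from DESeq2 1.42.0, in R 4.3.3. The scripts were tested on simulated data, where the biological coefficient of variation came out above the true one, more so when that was low. No test was made, and the SDs measure the spread between these 3 libraries, which the study describes as independent experiments.

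Genes were named by rule: the 30 nuclear protein-coding genes with the highest mean FPKM, the 10 most counted genes, up to 4 per functional class and 5 per list of regulators, the fat body markers, up to 3 markers of other cell types, the 10 widest and 10 narrowest spreads at a mean of at least 50 FPKM, and the 5 highest long noncoding RNAs. Families could be named in full, and an item that this rule names is not reported here. *Lsd-2*, *Apoltp*, *RpS3A*, the paralogs of ribosomal proteins, the genes at the ends of the bomanin cluster and the lower mitochondrial transcripts were chosen after their values were seen. Members and lists were chosen with earlier results of these data known, and a few list entries were corrected once the files were seen. Alternatives covered the denominator of shares, thresholds, scaling and leaving out each library.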

Additional observations from a re-analysis of the deposited data

How the results depend on the processing

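The spread depended on replicate 1. Leaving out each library in turn gave a median coefficient of variation between 14.1% and 45.4%, and a biological coefficient of variation between 26.1% and 53.7%, with the lowest values (14.1% and 26.1%) without replicate 1. Among nuclear protein-coding genes only, the ribosomal protein share was 10.7% and the share of the 10 most counted genes 19.1%, and by summed FPKM the ribosomal protein share was 14.8%. All other alternatives for these and the yolk protein and mitochondrial shares stayed within 1 SD, and those for the number of expressed genes within 1.5 times. For the 2 coefficients the bound was the SD of the 3 results without a library, 17.1 and 13.8 percentage points. This bound is wide, since it includes the shift without replicate 1. Within it, the median coefficient was 50.0% over genes with a mean count above 0. The biological coefficient was 51.8% without a filter on low counts. Leaving out the marker genes of other cell types, chosen after seeing the data, gave a median coefficient of 40.0% and a biological coefficient of 42.4%. Leaving out a library moved none of 84 class shares and none of 90 mean levels of the 30 highest genes by more than 1 SD. With 3 libraries, leaving out 1 cannot shift a mean by the SD of all 3, so this outcome was fixed in advance. The same holds for the yolk, ribosomal protein and mitochondrial shares and for the 10 most counted genes when a library is left out. Restricting to nuclear genes moved 18 of 28 other class shares, and summed FPKM moved 22 of 28. Rescaling FPKM without the mitochondrial genome moved 10 of the 30 highest genes, all upward. No paired analysis was possible because a single group was used, so replicate numbers pair no samples. The 3 libraries limit the precision of every SD, and depth does not, except for genes near the limit of 3 counts.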

Other observations

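Long noncoding RNAs took between 0.159% and 0.216% of the counts, and 164 of the 2366 annotated as lincRNA reached a mean of 1 FPKM. *CR34335* was the highest, with 293, 604 and 503 FPKM in replicates 1, 2 and 3. *CR44404*, named IBIN at present and known as a transcript induced by infection, had 128, 390.1 and 451 FPKM. It was lowest in replicate 1 and highest in replicate 3, the order of the bomanins. *CR42862*, *CR40469* and *CR45045* (named CG45045 at present) averaged 114 ± 34.7, 105 ± 33.5 and 92.1 ± 28.8 FPKM (SD, n = 3 each). The present name of *CR45045* lacks the lncRNA prefix that *CR42862* and *CR40469* now carry, so its noncoding label may be out of date.

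The 2 spermathecal genes of the marker lists were highest in replicate 2. *Send1*, a protease of the sperm storage organ, had 2.23, 45.2 and 3.76 FPKM, and *Send2* had 0.0762, 1.76 and 0.936 FPKM. The 7 genes of the Malpighian tubules had summed levels of 54.3, 34.4 and 27.7 FPKM, an order that did not hold after TMM scaling. Whether the order of the libraries follows from the cells each one held was not tested.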
